A study of Mus musculus with 4 samples.

Results

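Dopamine neurons of the midbrain fall into subtypes, and 9 genes that label those subtypes were followed here through 6 brain regions: Aldh1a1, Sox6, Lmo3 and Chrna6, and Calb1, Calb2, Cck, Otx2 and Grp. They were picked by gene symbol, and they are 9 of the 22376 genes in the count tables of a Visium experiment, in which RNA from a tissue section is captured on a grid of barcoded discs and counted as unique molecular identifiers (UMIs). All 9 had a row in both midbrain tables, and 8 had one in all 4 tables, Chrna6 being unlisted for 1 striatal array.

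All 8 mice were single-housed male DAT(iCre/iCre) animals of 3 to 4 months, homozygous for Cre at the dopamine transporter gene (the DAT-IRES-Cre line in the study's methods), so the controls carried the same allele. GqCNO mice (n = 3) carried the Cre-dependent activating receptor hM3Dq, delivered to the midbrain by AAV, and drank its ligand clozapine-N-oxide (CNO, 300 mg/L in 2% sucrose) for 1 week. GqVeh mice (n = 3) had the same virus and drank sucrose alone, while CNO alone mice (n = 2) were not injected and drank CNO. The GqVeh and CNO alone mice served as the 5 controls. Each brain gave midbrain discs of the substantia nigra (SN), ventral tegmental area (VTA) and thalamus, and striatal discs of the caudate putamen (CP), lateral septal complex (LSX) and white matter. GqCNO mouse 801 had no thalamus column.

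The SN is the source of the dopamine axons that fill the dorsal striatum, and the VTA sends its axons mainly to ventral striatum and cortex. Aldh1a1 and Sox6 are known for the ventral tier of the SN, where neurons are most easily lost in Parkinson's disease, whereas Calb1, Calb2, Cck, Otx2 and Grp are known from VTA and dorsal-tier neurons. None of these genes is used by dopamine neurons alone, so in a disc that covers several cells a level sums over all of them.

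SN and VTA discs were chosen in the study by TH staining and by Th, Slc6a3 and Slc18a2, which makes those transcripts no independent result. In injected mice the stained cell body also had to carry mCherry, the fluorescent tag on hM3Dq. That criterion did not apply to the uninjected CNO alone mice. The summed level of Th, Slc6a3, Slc18a2 and Ddc, genes of dopamine synthesis, uptake and storage, was 7.71 to 61.0 UMIs per 10000 in SN and 11.2 to 58.5 in VTA, against 0.103 to 0.350 in thalamus. Depth differed widely. VTA columns held 25808 to 350222 UMIs. SN columns held 7779 to 71906, and those of GqCNO mice 781 and 801 came from 1 disc each, with 14717 and 7779 UMIs, and that of GqVeh mouse 784 held 11644. Sox6 and Otx2 fell under the filter on low levels in SN and VTA, which left 7 of the 9 genes for testing there. A lower level can mean fewer cells of a type or less RNA per cell, which these discs cannot tell apart.

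RefSeq start-site sequences (GRCm38.p6) were at hand for 5 of the 9 genes. The 250 bases before the start of Aldh1a1 (chromosome 19, gene 20492583 to 20643463) and of Cck (chromosome 9, gene 121489824 to 121495694) are shown because both genes were lower in the SN of GqCNO mice, in the fit described further on. Aldh1a1 had 2 start-site entries, of which only the one at the outer edge of the annotated gene is shown. Which start the counted transcripts used was not tested. Capitals mark matches on either strand to 6 motifs, some of which were picked with these sequences in view. They were the bicoid-type homeobox motif TAATCC, the NR4A monomer site AAAGGTCA, the AP-1 motif TGACTCA, a variant cAMP response element TGACGCA, the E-box CACGTG, and the TATA box written TATAAA. The windows are chr19:20492333-20492582 on the plus strand and chr9:121495695-121495944 on the minus strand.
Aldh1a1: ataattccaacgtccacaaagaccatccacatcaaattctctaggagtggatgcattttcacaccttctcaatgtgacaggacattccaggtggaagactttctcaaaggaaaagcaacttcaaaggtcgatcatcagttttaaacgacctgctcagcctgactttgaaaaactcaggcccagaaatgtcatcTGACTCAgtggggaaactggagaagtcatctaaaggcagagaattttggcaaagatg
Cck: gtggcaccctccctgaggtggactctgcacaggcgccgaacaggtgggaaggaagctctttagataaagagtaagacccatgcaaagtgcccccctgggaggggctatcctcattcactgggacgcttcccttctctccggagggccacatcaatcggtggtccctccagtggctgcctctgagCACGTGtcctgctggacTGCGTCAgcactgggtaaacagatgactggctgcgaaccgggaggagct
The Aldh1a1 window held 1 match, to TGACTCA, which 4.46% of 32851 promoter windows of this length hold. The Cck window held the E-box, found in 6.02% of windows, and TGACGCA in reverse complement, found in 1.75%. The homeobox motif, the NR4A site and the TATA box, present in 6.25%, 1.34% and 12.4% of windows, had no match in either. These matches describe letters and were not tested as binding sites.

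The first comparison set SN against VTA within each mouse. Its limma fit pooled the spread over all genes, so a gene's own scatter between mice entered its SE and p little. Cck, Calb2 and Calb1 were lower in SN and Aldh1a1 was higher, so 4 of the 7 tested genes passed the test, 1 higher and 3 lower, where 0.208% of all 6242 genes tested did (13 genes). The median log2 difference was -0.58 over the 7 genes and -0.09 over all genes tested. In the 5 control mice alone Cck, Calb1 and Aldh1a1 were called, 3 of 7, where 0.0809% of 6180 genes were. The sum of the 4 dopamine genes was higher in SN in 4 mice and lower in 4 (mean log2 difference -0.16, exact sign-flip p = 0.711).

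Cck encodes the neuropeptide cholecystokinin. Its SN level ran from 0 to 4.91 UMIs per 10000 with a median of 1.44, and its VTA level from 1.24 to 10.6 with a median of 7.77. It was lower in SN in 8 of 8 mice, by 1.57 ± 0.25 (SE) on the log2 scale (limma adjusted p = 6.3e-07; exact sign-flip p = 0.00781, the smallest that 8 mice allow). Leaving out the mice with SN columns under 15000 UMIs left a log2 difference of -1.02 (adjusted p = 0.0491).

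Calb2 encodes calretinin, a calcium-buffering protein. Its level ranged from 0 to 6.26 in SN (median 2.92) and from 4.97 to 7.96 in VTA (median 6.48). It was lower in SN in 8 of 8 mice, with a log2 difference of -1.49 ± 0.23 (adjusted p = 6.3e-07). That size leaned on GqCNO mice 781 and 801, which had no Calb2 UMI in their single SN disc, where 3 UMIs would have stood at 2.04 and 3.86 per 10000. In the 5 control mice the log2 difference was -0.80 (adjusted p = 0.168), and without the 3 mice with shallow SN columns it was -0.66 (adjusted p = 0.665).

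Calb1 encodes calbindin, another calcium buffer and the classic label of dorsal-tier and VTA neurons. The SN level ran from 0 to 2.09 (median 1.03) and the VTA level from 1.74 to 4.95 (median 2.94). It was lower in SN in 7 of 8 mice, GqCNO mouse 804 being the exception at 2.06 against 1.74, and the log2 difference was -1.38 ± 0.26 (adjusted p = 0.000187). Without the shallow SN columns the log2 difference was -0.98 (adjusted p = 0.243).

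Aldh1a1 encodes a retinaldehyde dehydrogenase that also clears the toxic aldehyde of dopamine. It ran from 3.43 to 33.5 in SN (median 15.9) and from 0.746 to 18.7 in VTA (median 8.35). It was higher in SN in 7 of 8 mice, while GqVeh mouse 785 had 5.97 in SN and 9.30 in VTA. The log2 difference was 0.76 ± 0.18 (adjusted p = 0.0136; exact sign-flip p = 0.0391), but it fell to 0.40 (adjusted p = 0.491) when libraries were scaled by TMM, a method that trims extreme genes, and the edgeR count model gave 0.57 (adjusted p = 0.998). Leaving out mouse 784 lowered it to 0.58 (adjusted p = 0.40), and it also missed the threshold without mouse 804 (adjusted p = 0.207), 802 (adjusted p = 0.0948) or C2W2 (adjusted p = 0.167), as it did without the shallow SN columns (0.65, adjusted p = 0.524).

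The other tested genes did not pass. Lmo3, which encodes a LIM-domain transcription cofactor, was higher in SN in 6 mice, equal at 0 in 1 and lower in 1 (log2 difference 0.85 ± 0.29, adjusted p = 0.391). Grp, gastrin-releasing peptide, was lower in SN in 5 mice and higher in 2 (log2 difference -0.58 ± 0.29, adjusted p = 0.719). Chrna6 encodes a nicotinic receptor subunit found on catecholamine neurons, and it was higher in SN in 4 mice and lower in 4 (log2 difference 0.07 ± 0.27, adjusted p = 0.977), with the sign turned under TMM scaling (-0.19).

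Sox6 and Otx2, transcription factors known to mark SN and VTA neurons respectively, were too sparse to compare. Sox6 had no UMI in the SN of 6 of 8 mice and stood at 0.264 and 0.278 per 10000 in the SN of the CNO alone mice, with at most 0.137 in any VTA column. Otx2 was at most 0.286 in VTA, and its SN maximum of 0.859, in GqVeh mouse 784, was 1 UMI. Neither labelled its region at this depth.

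Among 22 further subtype genes, 11 were tested in SN against VTA and 1 passed: Lpl, lipoprotein lipase, lower in SN by 1.17 ± 0.27 on the log2 scale (adjusted p = 0.0105). None of 8 tested microglial, 7 astrocyte or 7 oligodendrocyte genes passed in this comparison. Set per dopamine gene UMI, the 4 called markers kept their directions. The log2 difference of the ratio was 0.92 for Aldh1a1 (higher in 7 of 8 mice, exact p = 0.0234), -1.22 for Calb1 (lower in 8 of 8, exact p = 0.00781), -1.33 for Calb2 (lower in 7 of 8, exact p = 0.0156) and -1.41 for Cck (lower in 8 of 8, exact p = 0.00781). These are raw p-values among 7 genes compared.

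**Figure D1:**
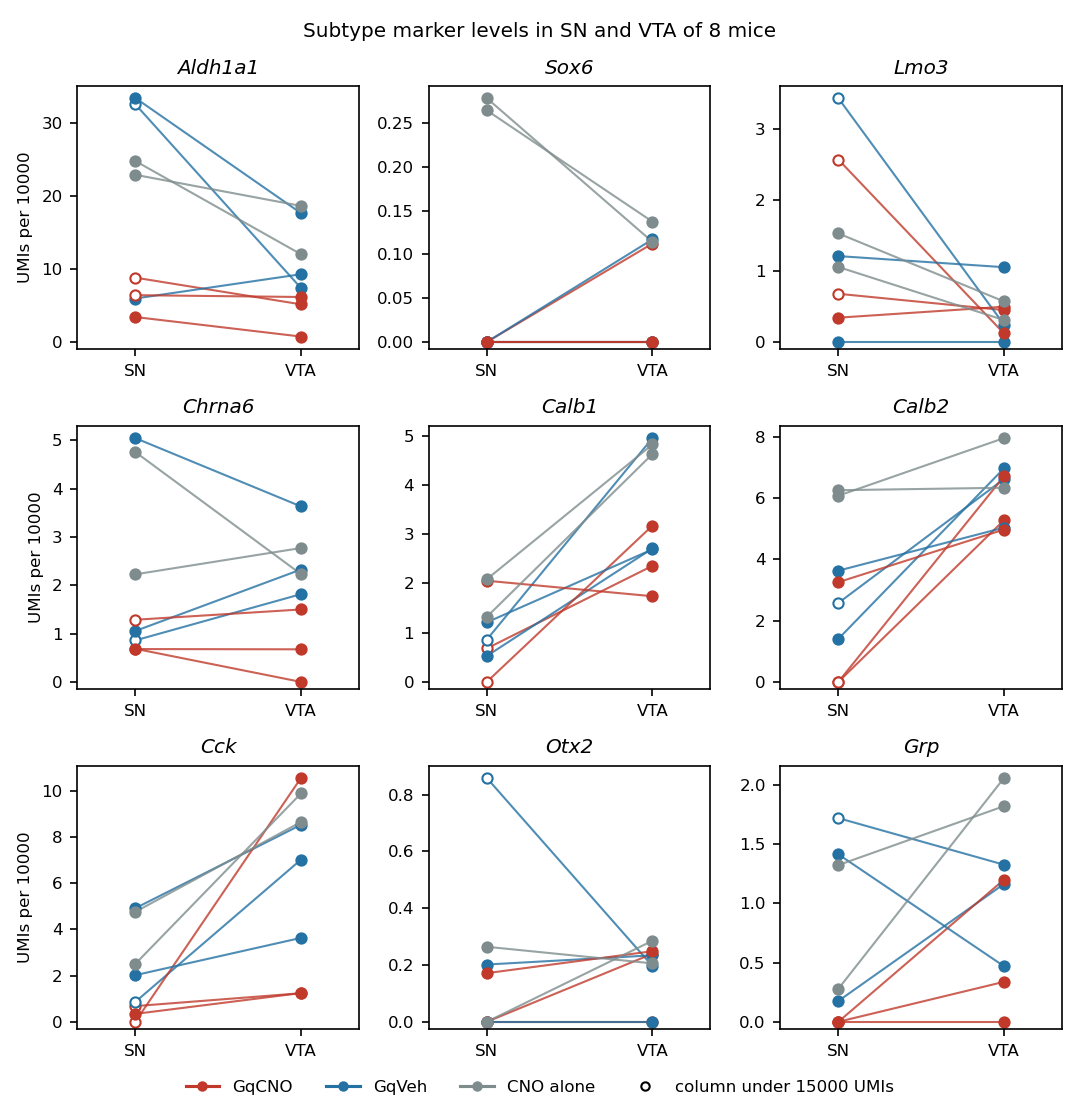
Level of each subtype marker in UMIs per 10000 (vertical axis, linear, scaled per panel) in SN and VTA, with 1 line per mouse, red for GqCNO, blue for GqVeh and grey for CNO alone; open circles mark columns under 15000 UMIs. Cck and Calb2 lines rose from SN to VTA in 8 of 8 mice and Aldh1a1 lines fell in 7 of 8, while Sox6 and Otx2 stayed under 1 UMI per 10000.

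The second comparison asked how a week of hM3Dq activation left these genes in VTA. Aldh1a1 and Chrna6 were lower in GqCNO mice than in controls, and none was higher, so 2 of 7 tested genes passed, where 1.52% of 6312 genes did in either direction and 0.317% were called lower. The median log2 difference was -0.99 over the 7 genes and -0.06 over all genes tested.

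Aldh1a1 in VTA stood at 5.17, 6.17 and 0.746 UMIs per 10000 in GqCNO mice 781, 801 and 804. It stood at 7.41, 9.30 and 17.7 in GqVeh mice 784, 785 and 802, and at 18.7 and 12.04 in CNO alone mice C1W7 and C2W2. The 3 GqCNO mice were below every control mouse, with means of 4.03 ± 2.89 (SD, n = 3) and 13.02 ± 5.0 (SD, n = 5). The log2 difference was -1.82 ± 0.38 (adjusted p = 0.0107; exact permutation p = 0.0179, the smallest that 56 splits allow). Within each pair of arrays on which the mice were run it was -2.39 (pair 1) and -1.01 (pair 2). Without GqCNO mouse 804, the lowest, it was -1.05 (adjusted p = 0.185).

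Chrna6 in VTA stood at 0.674, 1.5 and 0 in GqCNO mice 781, 801 and 804. It stood at 1.82, 2.32 and 3.63 in the GqVeh mice and at 2.77 and 2.23 in the CNO alone mice. The groups did not overlap, and in mouse 804 a count of 3 UMIs would have stood at 0.746, below every control. The log2 difference was -1.51 ± 0.33 (adjusted p = 0.0157; exact permutation p = 0.0179), and it was -1.75 and -1.24 within array pairs 1 and 2. Without mouse 804 it was -0.97 (adjusted p = 0.275), without mouse 781 the adjusted p was 0.0897, and the edgeR count model gave -1.28 (adjusted p = 0.0571).

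Cck in VTA split the GqCNO mice. Mice 781 and 804 had 1.24 each, below all 5 controls (3.63 to 9.88), while mouse 801 had 10.6, above all of them. The log2 difference was -1.25 ± 0.41 (adjusted p = 0.191), and without mouse 801 it was -2.14 (adjusted p = 0.000501). That single animal decided the call for Cck, and likewise for Grp, whose log2 difference of -0.99 ± 0.33 (adjusted p = 0.20) became -1.45 (adjusted p = 0.0278) without it.

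Calb2 and Calb1 did not pass in VTA. Calb2 stood at 5.28, 6.71 and 4.97 in the GqCNO mice and between 5.04 and 7.96 in the controls, so the groups overlapped (log2 difference -0.20 ± 0.21, adjusted p = 0.796). Calb1 stood at 2.36, 3.18 and 1.74 against 2.69 to 4.95 (log2 difference -0.60 ± 0.25, adjusted p = 0.365). Lmo3 differed by -0.06 ± 0.32 (adjusted p = 0.969).

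The dopamine genes fell in the same discs. Of the 4, Slc6a3, the dopamine transporter, fell by 2.12 ± 0.23 on the log2 scale, Ddc, which makes dopamine from L-DOPA, by 1.44 ± 0.21 and Slc18a2, the vesicular monoamine transporter, by 1.40 ± 0.25, while Th did not pass (-0.82 ± 0.31, adjusted p = 0.314). Among 11 tested genes of the further subtype list, Sncg (gamma-synuclein, -1.14 ± 0.25) and Drd2 (the dopamine autoreceptor, -1.28 ± 0.32) fell.

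Glial genes rose beside these falls, although the study had left out discs rich in Gfap, Aldh1l1, Aif1 or P2ry12. In VTA 5 of 8 tested microglial genes rose, among them the complement genes C1qa (log2 difference 3.06 ± 0.48) and C1qb (2.27 ± 0.34), and the 9 microglial genes summed to 23.2 to 55.6 UMIs per 10000 in GqCNO mice against 3.28 to 16.8 in controls, with none at 0 in either group. The controls differed among themselves, at 3.49 to 16.8 in GqVeh and 3.28 to 3.40 in CNO alone mice. Between these 2 groups the 8 tested genes had a median log2 difference of 0.86, with 0 called. The astrocyte genes Gfap and Aqp4 rose, 2 of 7 tested, and the 7 astrocyte genes summed to 28.4 to 39.9 against 13.2 to 25.3. The part of glial RNA in the lower subtype marker levels was not tested.

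Setting each marker against the 4 dopamine genes in the same discs gave another order. Per 100 dopamine gene UMIs, VTA Calb2 stood at 17.0, 22.1 and 44.4 in GqCNO mice 781, 801 and 804. It stood at 16.5, 11.9 and 11.4 in GqVeh mice 784, 785 and 802, and at 11.1 and 15.2 in the CNO alone mice. All 3 GqCNO mice were above every control, mouse 781 only narrowly, and the log2 ratio differed by 0.96 (exact permutation p = 0.0179, the smallest of 56 splits, among 7 genes compared in VTA and 7 in SN). It was 1.23 within array pair 1 and 0.40 within pair 2. With Th alone as the denominator the difference was 0.62 (exact p = 0.214), and with Slc18a2 and Ddc it was 1.27 (exact p = 0.0179).

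Aldh1a1 per 100 dopamine gene UMIs overlapped between the groups, at 14.5 ± 7.07 in GqCNO mice (SD, n = 3) and 26.0 ± 10.1 in controls (SD, n = 5). The log2 ratio differed by -0.66 (exact permutation p = 0.161). For Chrna6 it differed by -0.34 (exact p = 0.321), for Cck by -0.09 (exact p = 0.893) and for Calb1 by 0.57 (exact p = 0.214). Over Th alone, Aldh1a1 and Chrna6 differed by -1.0 (exact p = 0.0357) and -0.69 (exact p = 0.0179), and over Slc18a2 and Ddc by -0.35 (exact p = 0.571) and -0.03 (exact p = 0.929).

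**Figure D2:**
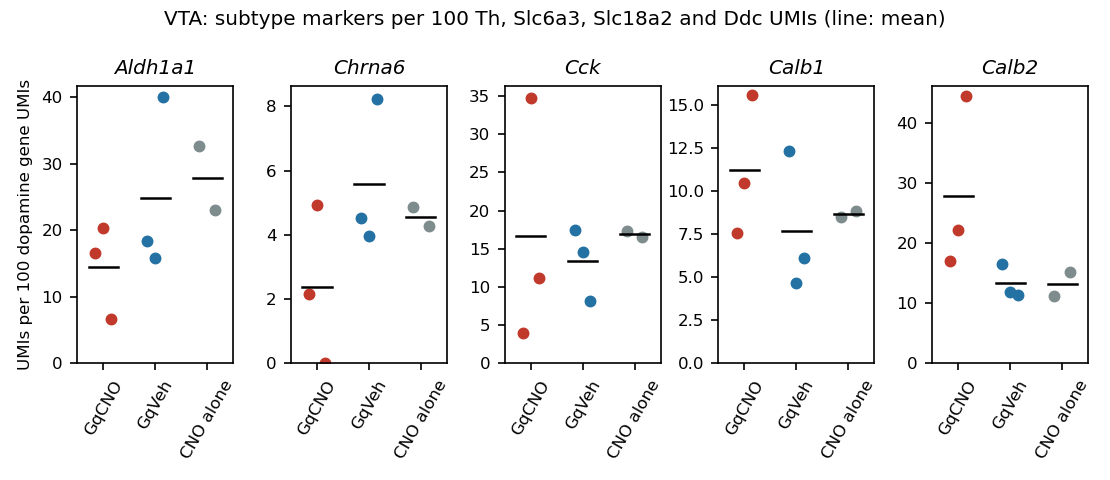
UMIs of 5 subtype markers per 100 UMIs of Th, Slc6a3, Slc18a2 and Ddc together in VTA (vertical axis, linear from 0), 1 point per mouse and a line at the mean of each group. Calb2 is the gene of the 5 whose GqCNO points (17.0 to 44.4) lie above every control point (11.1 to 16.5). The summed denominator was itself lower in GqCNO mice.

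In SN, Aldh1a1, Calb2 and Cck were lower in GqCNO mice than in controls, so 3 of 7 tested genes passed, where 0.648% of 6174 genes did in either direction and 0.275% were called lower. The median log2 difference was -1.40 over the 7 genes, -1.04 with Grp set to its bound, and -0.08 over all genes tested. Grp, at 0 in every GqCNO column, entered the test only through the controls. Its own value was the median of -1.40, which is thus no independent result. Of the 3 GqCNO columns only that of mouse 804 held over 15000 UMIs.

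Aldh1a1 in SN stood at 8.83, 6.43 and 3.43 UMIs per 10000 in GqCNO mice 781, 801 and 804. It stood at 32.6, 5.97 and 33.5 in GqVeh mice 784, 785 and 802, and at 22.9 and 24.8 in the CNO alone mice. GqVeh mouse 785 thus lay within the GqCNO range, and the other 4 controls lay above it. The means were 6.23 ± 2.71 (SD, n = 3) and 23.98 ± 11.1 (SD, n = 5), and the log2 difference was -1.75 ± 0.30 (adjusted p = 6.28e-06). The exact permutation p was 0.0893, and the difference was -2.49 and -0.88 within array pairs 1 and 2. As in SN against VTA, limma pooled the spread over all genes in this fit, so the scatter of the GqVeh mice in Aldh1a1 itself entered little. It was -2.28 (adjusted p = 0.10) without the shallow columns, where mouse 804 stood alone for GqCNO and was taken to vary like the others, and without mouse 804 it was -1.40 (adjusted p = 0.173).

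Cck in SN stood at 0.679, 0 and 0.343 in GqCNO mice 781, 801 and 804, which together held 3 Cck UMIs in 80858. It stood at 0.859, 4.91 and 2.02 in the GqVeh mice and at 2.5 and 4.76 in the CNO alone mice. The groups did not overlap, but the lowest control, mouse 784, also held 1 UMI. In the single discs of mice 781 and 801, 3 UMIs would have stood at 2.04 and 3.86 per 10000, above GqVeh mice 784 and 802. The log2 difference was -1.97 ± 0.52 (adjusted p = 0.0237; exact permutation p = 0.0357), with -2.49 and -1.25 within array pairs 1 and 2. Blocking on array pair gave -1.94 (adjusted p = 0.0603). It was -2.18 without the shallow columns, where mouse 804, with 2 Cck UMIs, stood alone for GqCNO. Leaving out 801, 804, 785, 802, C1W7 or C2W2 in turn raised the adjusted p to between 0.0609 and 0.411.

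Calb2 in SN had no UMI in the single discs of GqCNO mice 781 and 801, whose depth allowed up to 2.04 and 3.86 per 10000. It stood at 3.26 in GqCNO mouse 804, at 2.58, 1.40 and 3.63 in the GqVeh mice and at 6.26 and 6.08 in the CNO alone mice. The deeper GqCNO column therefore lay inside the control range. The log2 difference was -2.04 ± 0.49 (adjusted p = 0.00708, exact permutation p = 0.0536), with -1.93 and -2.77 within array pairs 1 and 2. It became -0.20 without the shallow columns, where mouse 804 stood alone for GqCNO, and -0.92 (adjusted p = 0.824) in the edgeR count model. The difference missed the threshold when mouse 781, 801, C1W7 or C2W2 was left out. The limit of mouse 781 lay below 4 of 5 controls and that of mouse 801 below 2 of 5.

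Chrna6 in SN stood at 0.679, 1.29 and 0.685 in the GqCNO mice, against 0.859, 1.05 and 5.04 in the GqVeh mice and 2.23 and 4.76 in the CNO alone mice, with overlap (log2 difference -1.04 ± 0.50, adjusted p = 0.627). Grp had no UMI in any GqCNO SN column, 0 of 80858 UMIs, which allows up to 0.371 per 10000. The controls held 0.746 per 10000 over their summed UMIs, so the level over the group was at least 2.01-fold lower against that limit, but 2 of 5 controls (0.175 and 0.278) lay below the limit themselves, and Grp did not pass the test across all genes (adjusted p = 0.45). Calb1 (-0.50 ± 0.54) and Lmo3 (-0.15 ± 0.53) did not pass.

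Of the dopamine genes in SN, Ddc fell by 2.17 ± 0.37 and Th by 1.03 ± 0.28 on the log2 scale, and their sum with Slc6a3 and Slc18a2 differed by -2.36 within array pair 1 and 0.28 within pair 2. Per dopamine gene UMI no marker passed in SN, and the exact permutation p ranged from 0.232 for Calb1 to 0.982 for Grp. C1qa and C1qb rose, 2 of 8 tested microglial genes, and the 9 microglial genes summed to 25.7 to 45.5 UMIs per 10000 in GqCNO mice against 2.38 to 28.3 in controls, with P2ry12 at 0 in the GqCNO columns. The controls differed here too, at 12.5 to 28.3 in GqVeh and 2.38 to 4.73 in CNO alone mice. Between these 2 groups the 8 tested microglial genes had a median log2 difference of 1.40, with 0 called. Gfap (1 of 7 astrocyte genes) and the GABA neuron gene Pvalb (1 of 5) rose as well. The 5 GABA neuron genes had a median log2 difference of -0.01, and Sst was at 0 in the GqCNO columns, so Pvalb does not stand for its list. The part of the risen genes in the lower marker levels was not tested.

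**Figure D3:**
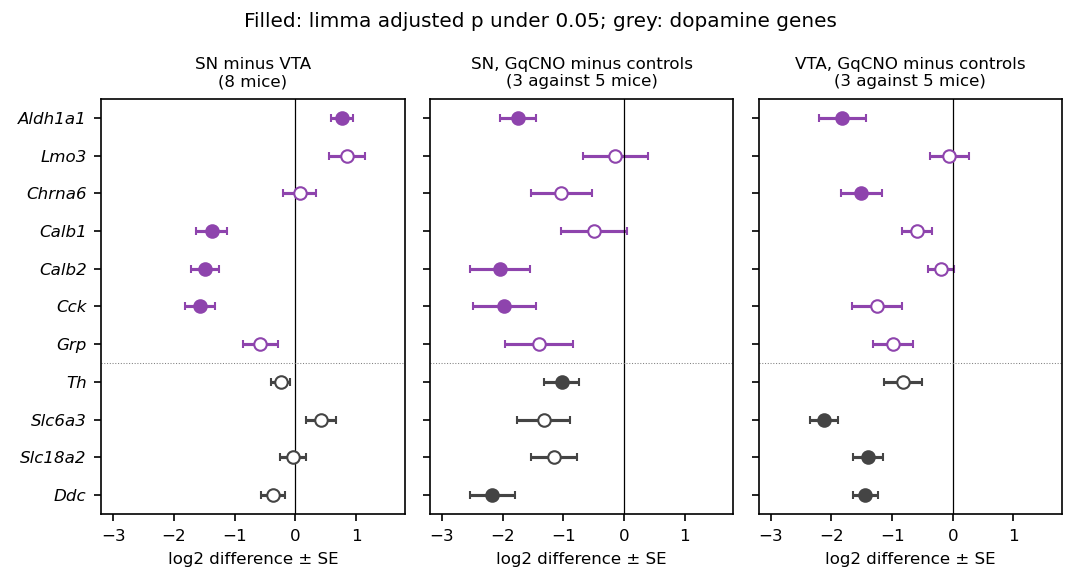
Log2 difference with its standard error (horizontal axis) for the 7 tested subtype markers (purple) and the 4 dopamine genes (grey) in SN against VTA, and for GqCNO against controls in SN and in VTA; filled points have a limma adjusted p under 0.05. Aldh1a1 was lower in GqCNO mice in both regions (-1.75 and -1.82), whereas Calb2 stood at -2.04 in SN and -0.20 in VTA.

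Whether the response differed between SN and VTA was tested by the interaction. None of the 6242 genes passed in limma (0.0%), 337 (5.4%) having an unadjusted p under the threshold, and no count model was run for it. Calb2 had the smallest p of the 7 markers (log2 difference of differences -1.84 ± 0.49, adjusted p = 0.263), and the 1 call among them, Calb2 without mouse 804, rested on the single-disc columns of mice 781 and 801. For Aldh1a1 it was 0.07 ± 0.37 (adjusted p = 0.976).

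The control groups were also taken apart. These comparisons share mice with those above. In SN, GqCNO against GqVeh called 1 of 7 markers, Aldh1a1 (-1.61 ± 0.34, adjusted p = 0.00234), where 0.194% of genes passed, and GqCNO against CNO alone called Aldh1a1 (-1.94), Calb2 (-2.77) and Cck (-2.33), where 0.615% did. In VTA, 0 of 7 passed against GqVeh in limma and in edgeR (0.475% of genes). At an unadjusted p under the threshold 3 of 7 passed (10.9% of genes), and without mouse 801 the adjusted test called 3 of 7 (0.719% of genes). Aldh1a1 had -1.63 ± 0.43 (adjusted p = 0.0933) and Chrna6 -1.51 ± 0.37 (adjusted p = 0.0716). Against CNO alone, 1 of 7 passed in VTA, Aldh1a1 (-2.10 ± 0.48, adjusted p = 0.0248), where 1.12% did. Between GqVeh and CNO alone, limma and edgeR called 0 of 7 in SN (0.0648% of genes) and 0 of 7 in VTA (0.0792%). At an unadjusted limma p under the threshold 1 of 7 passed in SN (1.46% of genes) and 0 of 7 in VTA (2.04%).

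Away from the dopamine cell bodies none of the markers was called between GqCNO and controls by limma or edgeR. In thalamus 4 were tested (0.0% of 6399 genes called; 1 of the 4, Calb2, at an unadjusted p under the threshold, as were 3.34% of genes). In CP 5 were tested (0.0% of 10813; by the unadjusted p 1 of 5, Cck, and 3.7% of genes), in LSX 7 (0.0% of 11036; 1 of 7, Sox6, and 3.19%) and in white matter 6 (0.0367% of 10902; 0 of 6, and 2.96%). The mean of Sox6 in LSX lay under the filter on low levels in GqCNO mice. Sox6 entered that test only through the controls, so its unadjusted p is no independent result. Aldh1a1 in CP stood at 0.339 ± 0.050 UMIs per 10000 in controls (SD, n = 5) and was 0.12 higher on the log2 scale in GqCNO mice (exact permutation p = 0.286). Cck in LSX was below every control in all 3 GqCNO mice (0 to 0.0793 against 0.0931 to 0.162), on 13 UMIs (log2 difference -0.92 ± 0.44, adjusted p = 0.911; exact permutation p = 0.0179). The 0 was that of mouse 804, whose depth allowed up to 0.373 per 10000, a limit above every control. The lowest control, GqVeh mouse 784, held 1 UMI.

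Across regions of the midbrain arrays, Chrna6 was seen in SN and VTA and not in thalamus. It stood at 2.07 ± 1.81 in SN and 1.87 ± 1.15 in VTA (SD, n = 8), and thalamus held 0 of 1879665 UMIs, which allows up to 0.016 per 10000. Aldh1a1 stood at 17.3 ± 12.5, 9.65 ± 6.19 and 1.58 ± 0.61 (SD, n = 7) in SN, VTA and thalamus. SN exceeded thalamus for Aldh1a1 by 2.90 ± 0.24 on the log2 scale (7 of 7 mice), and VTA by 2.03 ± 0.33 (6 of 7 mice). In all, 6 of 7 markers differed between SN and thalamus, 4 higher and 2 lower, and 6 of 7 between VTA and thalamus, 5 higher and 1 lower, where 20.7% and 29.8% of all genes did. Chrna6, Lmo3 and Grp, called higher in both, lay under the filter on low levels in thalamus. They entered these tests only through their SN or VTA levels, so their calls are no independent result.

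Cck and Calb1 were not higher in SN or VTA than in thalamus. Cck had its highest midbrain mean in thalamus, at 8.15 ± 2.22 (SD, n = 7), against 6.34 ± 3.78 in VTA and 2.01 ± 1.93 in SN (SD, n = 8), and SN was lower than thalamus in 7 of 7 mice (log2 difference -1.90 ± 0.23). VTA was lower than thalamus by 0.74 ± 0.26 on the log2 scale (6 of 7 mice, adjusted p = 0.0334; exact sign-flip p = 0.172). Calb1 in VTA and thalamus did not differ beyond their spread, 3.39 ± 1.24 and 3.16 ± 1.03 (log2 difference 0.07 ± 0.16, adjusted p = 0.777), while SN, at 1.09 ± 0.73 (8 mice), was lower than thalamus in 6 of 7 mice (log2 difference -1.10 ± 0.23, adjusted p = 0.00015; exact sign-flip p = 0.0312). Grp was higher than in thalamus in SN (0.67 ± 0.24) and in VTA (1.07 ± 0.21), and so was Lmo3 (1.21 ± 0.26 and 0.57 ± 0.17).

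The striatal arrays were normalised apart from the midbrain arrays and were not tested against them. Among their regions, Calb1 and Lmo3 were the markers called higher in CP than in both LSX and white matter. Calb1, also carried by many striatal projection neurons, stood at 3.46 ± 0.28 in CP, 1.11 ± 0.49 in LSX and 0.413 ± 0.220 in white matter (SD, n = 8). Lmo3 stood at 1.39 ± 0.14, 0.263 ± 0.063 and 0.281 ± 0.177, and CP exceeded LSX in 8 of 8 mice for both. CP also exceeded LSX in 8 of 8 mice for Aldh1a1 (log2 difference 1.83 ± 0.29) and Cck (1.03 ± 0.21). Neither of these was called higher in CP than in white matter. Calb2 was lower in CP than in LSX by 2.22 ± 0.23 on the log2 scale (0.0255 against 0.345, 8 of 8 mice), and Otx2 by 1.58 ± 0.25 (7 of 8 mice). Cck was higher in white matter than in CP and LSX in 8 of 8 mice, but it ranged there from 0.419 to 9.46. Sox6 ran from 0.066 to 0.083 in the means of the 3 regions and did not pass between any pair of them. In all 6 of 7 markers differed between CP and LSX (36.8% of all genes), 4 of 6 between CP and white matter (50.0%) and 4 of 7 between LSX and white matter (43.3%). In CP against LSX, Calb2 and Otx2 entered only through LSX, being under the filter in CP. Likewise Calb2 entered CP against white matter only through white matter, and Otx2 entered LSX against white matter only through LSX. Chrna6 had no UMI in the striatal columns, 0 of 43793456 in CP, where the gene was unlisted for 1 of the 2 arrays.

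**Figure D4:**
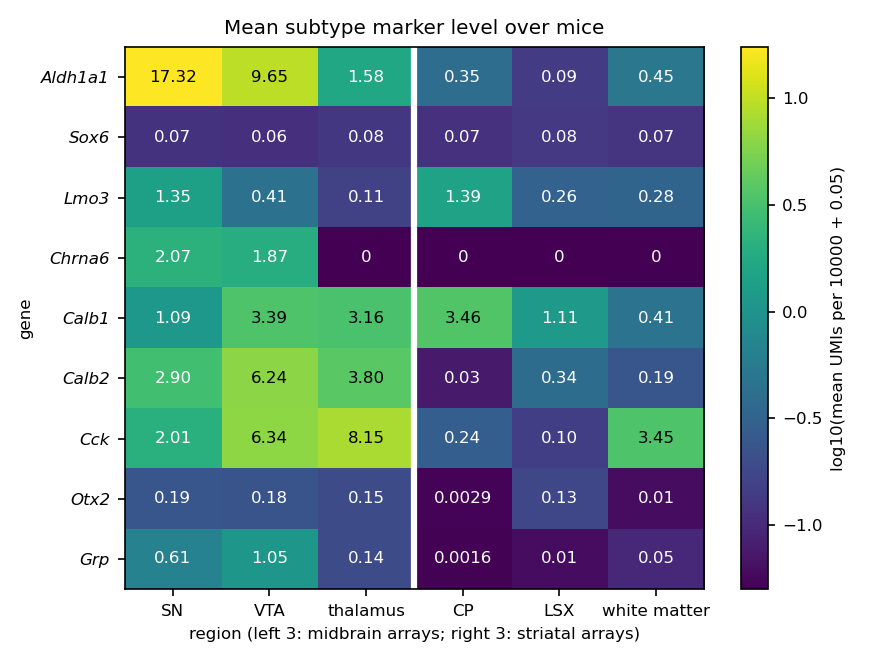
Mean level of each subtype marker in UMIs per 10000 over 8 mice (7 in thalamus), printed in each cell and coloured on a log10 scale after adding 0.05; the white line parts midbrain from striatal arrays. Aldh1a1 falls from 17.32 in SN to 9.65 in VTA and 1.58 in thalamus, and Chrna6 is at 0 outside SN and VTA.

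As a description over the 16 SN and VTA columns, the genes whose log2 levels followed each marker most closely were listed among 5341 genes tested in both regions. For Aldh1a1 they were Lnx1 (r = 0.81), Chrna6 (r = 0.79) and Pja1 (r = 0.79), and for Chrna6 they were Magee1 (r = 0.85), Slc18a2 (r = 0.84) and Cdh8 (r = 0.83). Calb1 was followed by Gaa (r = 0.88), Calb2 (r = 0.84) and Phb (r = 0.84), Calb2 by Psmd7 (r = 0.92), Minar2 (r = 0.90) and Zer1 (r = 0.90), and Cck by Tmem91 (r = 0.90), Podxl2 (r = 0.89) and Ly6h (r = 0.88). Lmo3 was followed by Emd (r = 0.81), Cyhr1 (r = 0.81) and U2af1l4 (r = 0.77), and Grp by Meg3 (r = 0.79), Astn1 (r = 0.79) and Diras2 (r = 0.79). The columns share mice and arrays and differ in depth, and shallow columns with zeros weigh in these values.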

How the data were processed

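The authors sequenced 4 Visium arrays (2 midbrain, 2 striatal; 10 µm sections), aligned reads to mm10 with Space Ranger and grouped discs by region and mouse in Loupe Browser. The deposited gene tables hold, per mouse and region, mean signal values scaled per array, from which whole UMI counts were recovered within a tolerance of 0.05 steps for 100% of low values. Each column was rescaled to 10000 UMIs. Log2 values took a constant of 0.5 (midbrain) or 0.05 (striatum), and genes with a mean of at least 0.25 or 0.05 were tested with limma 3.58.1 (trend), with Benjamini-Hochberg adjustment over all genes tested and a threshold of 0.05. The mouse was the replicate: regions were compared within mice and groups as GqCNO against 5 controls. Exact two-sided permutation tests enumerated 56 splits or 256 sign flips, or 21 and 128 where thalamus took part, and are not adjusted. Limits at 0 are 3 UMIs and, like all depth statements, cover counting error only. edgeR 4.0.16 on the recovered counts, other scalings, constants and filters, a block for the array pair, a t-test and leaving out each mouse were alternatives. That t-test set GqCNO against the 5 pooled controls, with the same adjustment. The study's own t-tests took each control group apart at an unadjusted p under 0.05 and were not repeated. Scripts were tested on simulated data. The members and the gene lists were chosen with earlier results of these data known, and named genes are the 9 markers, up to 6 called genes per list by smallest p, and the 3 closest genes per marker. P-values measure spread between these mice, which limma pooled in part over genes. In the SN against VTA, SN group and interaction fits the pooling was nearly complete. There a gene's own scatter between mice entered its SE and limma p little. Protein sequences and promoters of the other 4 markers were not used here.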

Additional observations from a re-analysis of the deposited data

Results flagged for a closer look

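Values of 1 control mouse that stood far from the other 4 were found in 4 of 36 sets of gene and region checked, where chance marks about 1 in 20 (1.8 of 36). Calb2 in thalamus stood at 19.7 UMIs per 10000 in CNO alone mouse C2W2, against 0.819 to 1.94 in the other controls, in a column of 80837 UMIs that also had the highest thalamic Otx2 (0.619). Cck in white matter stood at 9.46 in GqVeh mouse 784, against 1.28 to 2.89 in the others. Aldh1a1 in white matter stood at 1.14 in CNO alone mouse C1W7. Otx2 in LSX stood at 0.279 in GqVeh mouse 784, which was 3 UMIs.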

How the results depend on the processing

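The SN calls rest on columns of 7779 to 71906 UMIs. Counts of markers called follow. SN against VTA called 4; 0 without a filter on low levels, 1 with the stricter filter, 2 in edgeR, 1 in GqCNO mice only, 0 without the mouse block, 1 without the shallow SN columns (an alternative chosen after seeing the data) and 3 to 4 on leaving out 1 mouse. VTA, GqCNO against controls, called 2. That became 0 with the lower constant, without the filter and by the adjusted t-test on pooled controls, and 1 in edgeR. On leaving out 1 mouse it ranged from 0 (without mouse 804) to 4 (without mouse 801). SN, GqCNO against controls, called 3. That became 0 with the stricter filter and by the adjusted t-test on pooled controls. On leaving out 1 mouse it ranged from 1 (without 801, 804, C1W7 or C2W2) to 3. Against GqVeh in SN the 1 call became 0 under TMM scaling, the stricter filter and without the shallow columns (0 to 1 on leaving out 1 mouse). Against CNO alone the 3 SN calls became 0 under the stricter filter and without the shallow columns (0 to 3), and the 1 VTA call became 0 under TMM scaling, the lower constant, no filter and the stricter filter (0 to 4). VTA against GqVeh ranged from 0 to 3 on leaving out 1 mouse and the interaction from 0 to 1. The stricter filter, which tests fewer markers, gave 2 for VTA against thalamus and 3 for CP against LSX, and GqCNO mice alone gave 2 for LSX against white matter. CP and the control regions gave 0 in every setting run. The direction of Aldh1a1, Calb2, Cck, Chrna6 and Grp in GqCNO against controls held in every setting run in both regions, and Calb1 and Lmo3 turned in 3 of 18 SN settings each, Lmo3 also in 4 of 16 VTA settings. The causes were not tested. Blocking on array pair, GqCNO against controls called 2 in SN, Cck being lost, and 2 in VTA.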
